A study of Mus musculus with 6 samples.

Results

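The genes described here are the transcription factors and pocket proteins that switch cell cycle genes on and off: the E2F factors E2f1, E2f2, E2f3, E2f4 and E2f8, the retinoblastoma family genes Rb1, Rbl1 and Rbl2, and Mybl2 and Foxm1, whose proteins join the MuvB complex. They were taken by name, and every probe annotated to them on the array was read, 20 of 45281 probes for 10 of 19057 named genes. Of these, 12 probes for 8 genes were detected on all 6 arrays, out of 14091 probes and 8149 named genes on the array that were. The 8 other probes, among them every probe of E2f8 and Rbl2, were below detection on at least 1 array and are described by their signals. In RAW 264.7 cells given mica fine particles (MFP), Mybl2, E2f2 and Foxm1 were more than 3-fold lower at 48 h than at 0 h, E2f1, E2f4 and Rbl1 were lower by less than 2-fold, and Rb1 was the only member with a probe that rose.

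RAW 264.7 is a mouse macrophage line, so all arrays come from 1 line, without a donor or animal behind each sample. The cells were grown in RPMI with a higher share of fetal bovine serum and moved to 2% serum at seeding, some hours before MFP. They were given 100 µg/mL of MFP, a milled sheet silicate, and collected at 0 h, 12 h and 48 h. Each time point has 2 Illumina Mouse WG-6 v2.0 arrays. The labels and methods give the same dose for the 0 h cells, while a legend of the study calls them nontreated, so 0 h is read here as the start of the time course. No arm without particles at 12 h or 48 h was analysed here, so time in culture, time in 2% serum and exposure to MFP cannot be told apart. Nothing in the sources says whether both arrays at 1 time came from independent cultures. The p-values therefore reflect array-to-array spread alone, and that spread may be technical.

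E2F factors bind the promoters of genes for DNA replication together with a DP partner. E2F1, E2F2 and E2F3 activate those genes and are held back by the RB protein until cyclin-dependent kinases phosphorylate it, whereas E2F4 with the pocket proteins p107 (Rbl1) and p130 (Rbl2) represses them in resting cells as part of the DREAM complex, which also holds MuvB. In dividing cells MuvB leaves the pocket proteins and binds B-MYB (Mybl2) and then FOXM1 to activate the genes of G2 and mitosis, and E2F8 is a repressor that E2F itself induces. For the comparison of activators with repressors, E2f1, E2f2, E2f3, Mybl2 and Foxm1 were counted as activators, and E2f4, E2f8, Rb1, Rbl1 and Rbl2 as repressors.

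Promoter windows of 7 of the 10 members, 9 windows in all, were read from RefSeq on GRCm38.p6, each running from 250 bases before to 50 bases after an annotated transcription start. An E2F motif, the letters TTCCCGC, the variant TTCGCGC, the variant TTGGCGC or the variant TTGCCGC on either strand, was found in 4 of the 9 windows, compared with 9.57% of all 32851 windows and 17.2% of the 8584 windows of genes tested here. A CHR motif, the letters TTTGAA or the variant TTCGAA on either strand, which is the element that MuvB binds, was found in 4 of the 9 windows, compared with 19.2% of all windows and 13.6% of those of genes tested. On the strand of the gene alone, 2 windows held a CHR match. The 7 letters GGCGGGA on either strand, which can overlap the first E2F motif and were added after the windows had been seen, were found in 3 windows, compared with 11.3% of all windows and 21.7% of those of genes tested. A match describes the letters only and is not a bound site. The windows of 4 starts, chosen after the matches were seen, are printed to show where such letters lie, in E2f2, Mybl2 and Rbl1, which fell at 48 h, and in the upstream start of E2f3, which did not pass the 48 h test on either probe. E2f1, which also fell, is not printed because the window read for it, which lies inside the annotated gene, holds none of the motifs. Capitals mark the motif matches, and each sequence runs 5′ to 3′ on the strand of the gene.
E2f2 (chr4:136172024-136172323, plus strand): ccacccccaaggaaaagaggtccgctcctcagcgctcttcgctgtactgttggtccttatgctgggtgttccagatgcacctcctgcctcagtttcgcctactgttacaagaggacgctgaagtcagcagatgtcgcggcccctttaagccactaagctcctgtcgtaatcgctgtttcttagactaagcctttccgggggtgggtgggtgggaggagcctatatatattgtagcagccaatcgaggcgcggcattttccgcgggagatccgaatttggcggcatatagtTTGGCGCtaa
Mybl2 (chr2:163054385-163054684, plus strand): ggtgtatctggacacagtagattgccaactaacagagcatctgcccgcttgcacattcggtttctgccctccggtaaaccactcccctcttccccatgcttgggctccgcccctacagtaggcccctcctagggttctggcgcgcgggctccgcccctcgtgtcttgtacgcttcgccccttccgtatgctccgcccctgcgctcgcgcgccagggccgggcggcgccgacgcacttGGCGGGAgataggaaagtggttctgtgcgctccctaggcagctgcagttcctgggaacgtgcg
Rbl1 (chr2:157204485-157204784, minus strand): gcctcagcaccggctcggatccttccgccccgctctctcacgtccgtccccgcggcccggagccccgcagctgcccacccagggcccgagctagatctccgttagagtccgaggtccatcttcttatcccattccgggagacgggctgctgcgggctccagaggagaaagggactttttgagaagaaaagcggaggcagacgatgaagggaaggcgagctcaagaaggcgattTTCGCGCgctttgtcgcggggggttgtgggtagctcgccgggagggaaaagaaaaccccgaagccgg
E2f3 (chr13:29986014-29986313, minus strand): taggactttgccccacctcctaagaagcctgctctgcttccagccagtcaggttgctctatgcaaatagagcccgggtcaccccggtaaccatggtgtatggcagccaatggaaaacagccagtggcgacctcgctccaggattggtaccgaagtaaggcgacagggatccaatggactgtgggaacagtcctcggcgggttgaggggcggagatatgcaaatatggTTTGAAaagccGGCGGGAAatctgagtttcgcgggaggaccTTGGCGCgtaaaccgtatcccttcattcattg
The E2f2 window has TTGGCGC starting at base 41 after the start, and the Rbl1 window has TTCGCGC starting at base -17. The Mybl2 window has GGCGGGA starting at base -13 and neither of the other motifs. The E2f3 window holds a CHR match at base -23, an overlapping run of GGCGGGA and the reverse complement of TTCCCGC from base -12, and TTGGCGC at base 19. The second start of E2f2, 136180532-136180831 on chromosome 4, holds only a CHR match, and the downstream start of E2f3, 29984342-29984641 on chromosome 13, holds GGCGGGA at bases -78 (on the other strand) and 19. The window of E2f1 without a match is chr2:154569377-154569676 on the minus strand. It lies inside the annotated gene, whose 5′ end is at 154569892, so the bases upstream of that end were not read. The windows of Mybl2 and E2f8 also lie inside their annotated genes, and the bases upstream of those genes were not read either. The E2f8 window (chr7:48881547-48881846, minus strand) holds TTGGCGC and a CHR match, and the window of Rbl2 (chr8:91069807-91070106, plus strand) holds a CHR match alone.

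The arrays could be read for this cell type. All 6 macrophage markers on the array were detected on every array, and of the T cell, B cell and fibroblast lists no gene was detected on both arrays of any time point, and of the epithelial list only Cdh1 was. The number of detected probes lay between 16176 and 17155 per array. The values of the deposited normalized table showed that the arrays had been normalized in 2 sets of 3. Set 1 held replicate 1 of 0 h together with replicate 2 of both 12 h and 48 h, and set 2 the rest. Set 1 was brighter, with mean signals of 723 to 855 against 523 to 628. Each set holds every time point, so changes within a set are given where the sets matter. Fewer cells of a kind and less RNA per cell cannot be told apart in these samples.

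**Figure D1:**
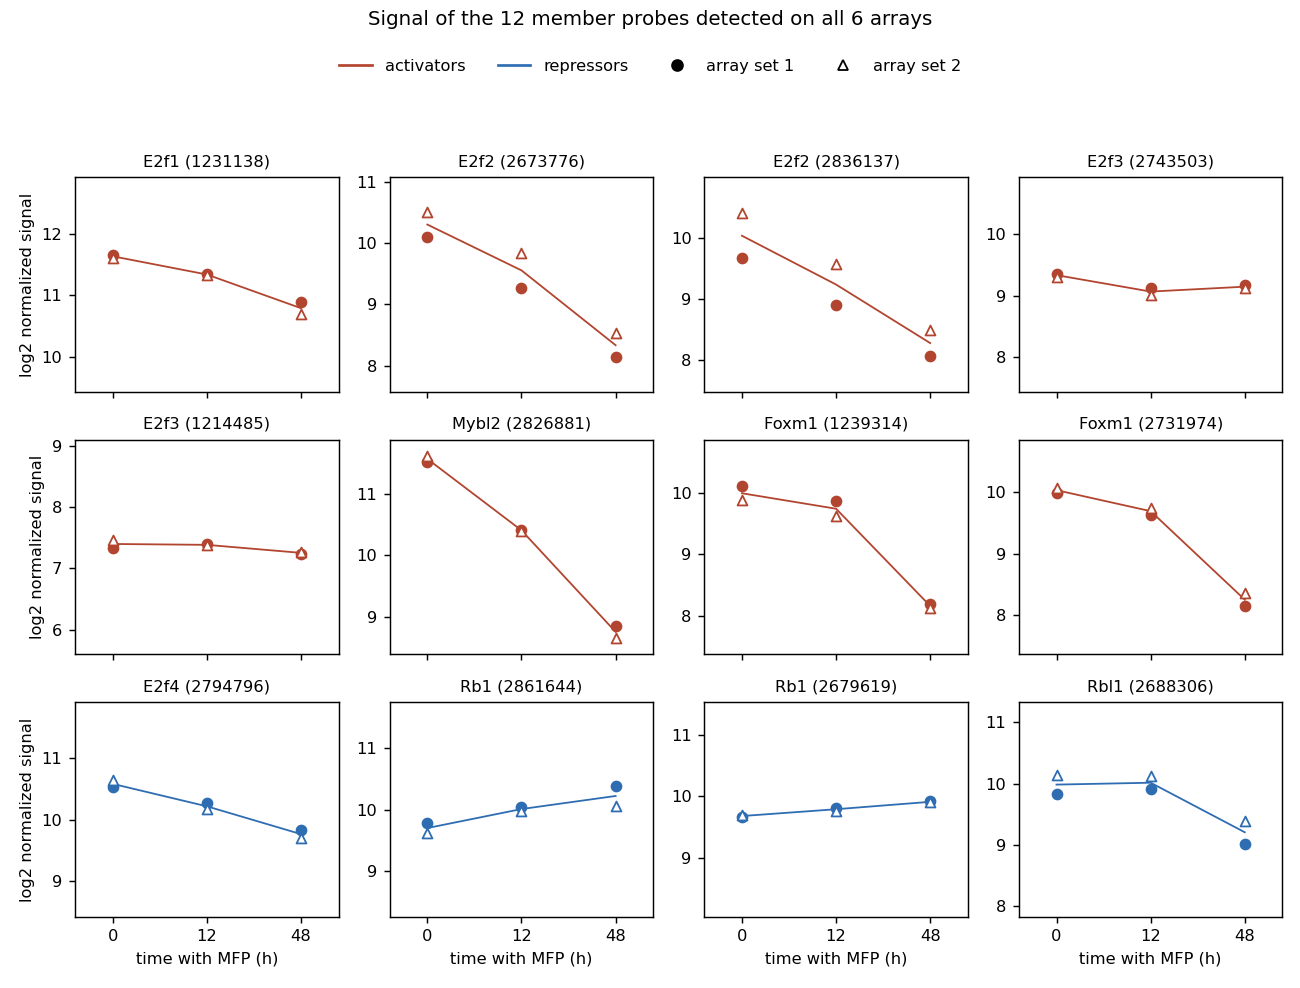
Log2 quantile normalized signal (y axis) of the 12 member probes detected on all 6 arrays, by hours with MFP (x axis, not to scale), with activators in red and repressors in blue. Each point is 1 array, filled circles for array set 1 and open triangles for array set 2, lines join the means of a time point, and every panel spans the same number of log2 units. Mybl2, both probes of E2f2 and both probes of Foxm1 drop furthest, E2f3 stays nearly level, and Rb1 climbs slightly.

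Among the activators, Mybl2 changed most. Mybl2 (chr2:163054327-163084688) encodes B-MYB, the partner with which MuvB starts the G2 programme. On its bright probe, ILMN_2826881, the log2 normalized signal was 11.53 and 11.62 on the 0 h arrays, 10.40 and 10.42 on those of 12 h, and 8.65 and 8.85 on those of 48 h. The 3 time points did not overlap, and arrays of 1 time point lay close together. Mybl2 fell by 1.16 ± 0.10 (SE) on the log2 scale at 12 h (limma, adjusted p = 0.000470). At 48 h its log2 change was -2.82 ± 0.10, a 7.06-fold lower signal (adjusted p = 1.51e-06). A second probe, ILMN_1249829, went from signals of 446 and 273 at 0 h to 202 and 249 at 12 h and was not detected on either array at 48 h, where the signals were 99.2 and 125. Measured against the lowest detected signal, the 0 h level was at least 2.68-fold higher than the 48 h level on this probe. The third probe, ILMN_2637886, was near the limit, detected on both arrays at 0 h, on 1 at 12 h and on none at 48 h. Its bound of at least 1.15-fold carries no error estimate. All 3 probes of Mybl2 therefore had their highest mean at 0 h.

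E2f2 (chr4:136172274-136196057), an activator that RB restrains, was lower at 48 h on both of its detected probes. On probe ILMN_2673776 the log2 signal was 10.10 and 10.50 on the 0 h arrays, 9.84 and 9.26 on those of 12 h, and 8.53 and 8.14 on those of 48 h. On probe ILMN_2836137 it was 9.66 and 10.40 on the 0 h arrays, 9.57 and 8.90 on those of 12 h, and 8.49 and 8.07 on those of 48 h. Every 48 h array lay below every 0 h array on both probes, and the wide spread within a time point followed the array sets, with set 2 higher at each time point. At 48 h E2f2 fell by 1.97 ± 0.22 on the first probe, 3.91-fold lower (adjusted p = 0.000187), and its log2 change on the second was -1.75 ± 0.28 (adjusted p = 0.00133). At 12 h the log2 changes were -0.75 ± 0.22 and -0.80 ± 0.28, neither of them past the threshold (adjusted p = 0.0536 and 0.0970). With the array set as a block both passed, with adjusted p of 5.28e-06 and 5.82e-06. Within set 1 the 12 h change was -0.83 on the first probe and -0.77 on the second, and within set 2 it was -0.66 and -0.83. The third E2f2 probe, ILMN_1248842, was not detected on any array.

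Foxm1 (chr6:128362994-128375886) encodes the forkhead factor that follows B-MYB on MuvB. On probe ILMN_2731974 the log2 signal was 10.00 and 10.07 on the 0 h arrays, 9.75 and 9.64 on those of 12 h, and 8.36 and 8.15 on those of 48 h. On probe ILMN_1239314 it was 10.11 and 9.88 on the 0 h arrays, 9.62 and 9.86 on those of 12 h, and 8.12 and 8.19 on those of 48 h. The 12 h arrays thus stayed close to the 0 h arrays, and both 48 h arrays lay far below. The log2 changes of Foxm1 at 48 h were -1.79 ± 0.10 (3.45-fold lower, adjusted p = 8.27e-06) and -1.84 ± 0.12 (3.57-fold lower, adjusted p = 1.35e-05). The 12 h changes of -0.34 ± 0.10 and -0.25 ± 0.12 did not pass (adjusted p = 0.0604 and 0.194), and passed with the array set as a block (adjusted p = 0.00316 and 0.0233).

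E2f1 (chr2:154559400-154569892) and E2f3 (chr13:29906575-29986064) are the remaining activators. The log2 signal of E2f1, on its single probe ILMN_1231138, was 11.66 and 11.62 on the 0 h arrays, 11.34 and 11.34 on those of 12 h, and 10.70 and 10.89 on those of 48 h. The time points did not overlap, and E2f1 fell at 48 h by 0.85 ± 0.097, 1.80-fold lower (adjusted p = 0.000215), after a change of -0.30 ± 0.097 at 12 h that did not pass (adjusted p = 0.0745, and 0.00935 with the array set as a block). On the brighter E2f3 probe, ILMN_2743503, the log2 signal was 9.36 and 9.31 on the 0 h arrays, 9.01 and 9.13 on those of 12 h, and 9.12 and 9.17 on those of 48 h. Its 48 h change was -0.19, with a 95% confidence interval from -0.40 to 0.021, and did not pass (adjusted p = 0.118). With the array set as a block it passed (adjusted p = 0.0442), as did its 12 h change of -0.27 ± 0.090 (adjusted p = 0.0823, and 0.0133 with the block). The second E2f3 probe, ILMN_1214485, had signals of only 137 to 185 and changed by -0.15 at 48 h (adjusted p = 0.213). The interval of the brighter probe leaves room for a decrease of E2f3 of at most 0.40 on the log2 scale, less than the measured 48 h decrease of each other activator.

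Among the repressors, E2f4 and Rbl1 fell and Rb1 rose. E2f4 (chr8:105297663-105305370), the E2F of the DREAM complex, had log2 signals of 10.53 and 10.64 on the 0 h arrays, 10.17 and 10.27 on those of 12 h, and 9.70 and 9.84 on those of 48 h on probe ILMN_2794796. The time points did not overlap, and E2f4 fell by 0.37 ± 0.098 at 12 h (adjusted p = 0.0401) with a log2 change of -0.82 ± 0.098 at 48 h (1.76-fold lower, adjusted p = 0.000272). The 12 h call was lost when any 1 of the 0 h and 12 h arrays was left out (adjusted p = 0.0952 to 0.192). Rbl1 (chr2:157145893-157204534), which encodes p107 and is itself an E2F target, had log2 signals of 9.84 and 10.14 on the 0 h arrays, 10.12 and 9.91 on those of 12 h, and 9.39 and 9.03 on those of 48 h on probe ILMN_2688306. The 0 h and 12 h arrays overlapped, and both 48 h arrays lay below them. Rbl1 fell by 0.78 ± 0.16 at 48 h (1.71-fold lower, adjusted p = 0.00376), while its 12 h change was 0.031 ± 0.16 (adjusted p = 0.921). Within array sets 1 and 2 its 48 h change was -0.81 and -0.74.

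Rb1 (chr14:73192858-73325951), which encodes RB, was read on a pair of bright probes. On ILMN_2861644 the log2 signal was 9.78 and 9.62 on the 0 h arrays, 9.97 and 10.05 on those of 12 h, and 10.06 and 10.38 on those of 48 h. On ILMN_2679619 it was 9.66 and 9.70 on the 0 h arrays, 9.77 and 9.82 on those of 12 h, and 9.91 and 9.92 on those of 48 h. Both probes were highest at 48 h and lowest at 0 h. Rb1 rose on the first probe by 0.52 ± 0.12 at 48 h (1.44-fold, adjusted p = 0.00853), a call that was lost without 0 h replicate 2 (log2 change 0.45, adjusted p = 0.0633), after scaling to the 75th percentile and in the deposited normalized table. The second probe gave 0.23 ± 0.085 (adjusted p = 0.0506), which passed with the array set as a block (adjusted p = 0.0160).

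**Figure D2:**
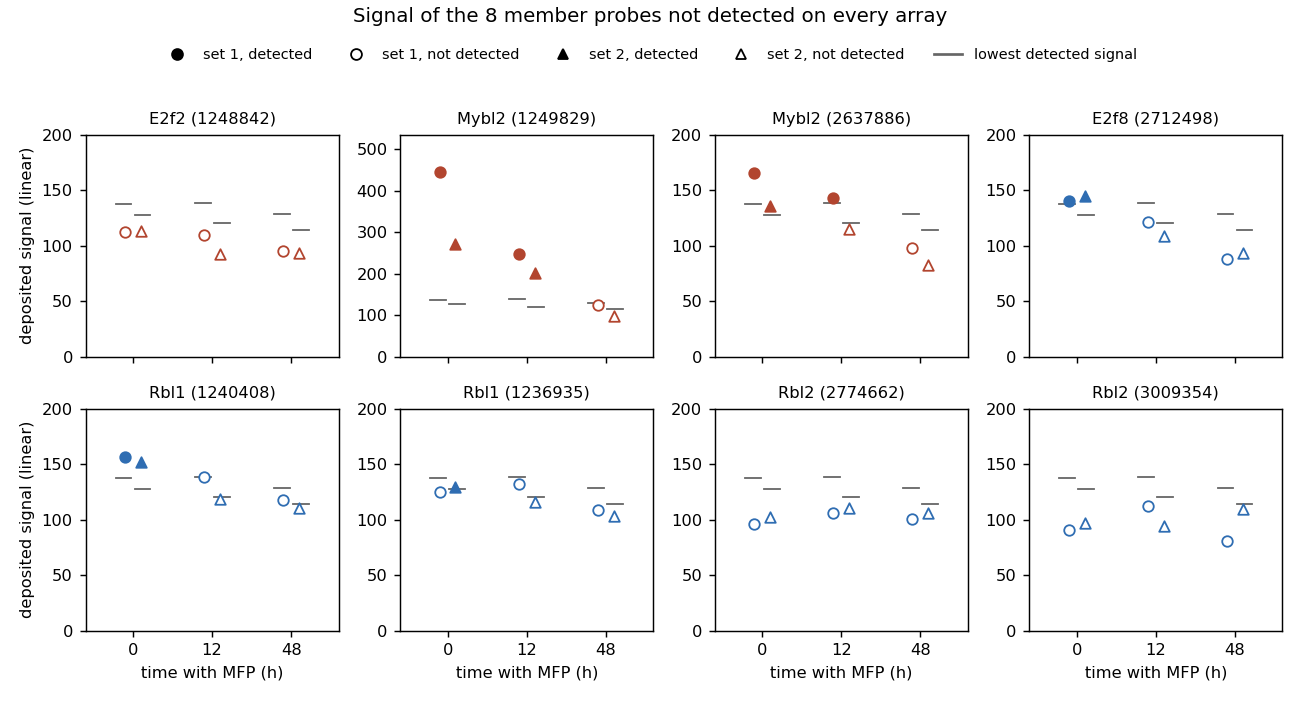
Deposited signal on a linear scale (y axis, from 0) of the 8 member probes not detected on every array, by hours with MFP (x axis), for activators (red) and repressors (blue). Circles are array set 1 and triangles set 2, filled where the detection p was under 0.05, and grey bars mark the lowest detected signal of each array. The E2f8 probe is filled only at 0 h and the Rbl2 probes nowhere.

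E2f8 (chr7:48866429-48882073), the atypical repressor, was close to the detection limit. On its single probe, ILMN_2712498, the signals were 141 and 145 on the 0 h arrays, 109 and 122 on those of 12 h, and 93.0 and 88.0 on those of 48 h. Only the 0 h arrays were detected. The 0 h mean gave a bound of at least 1.10-fold against 12 h and at least 1.11-fold against 48 h. These bounds carry no error estimate and, so close to the limit, do not establish a decrease. Rbl2 (chr8:91070057-91123844), which encodes p130, the pocket protein known for resting cells, was not detected at any time point, with signals of 96.1 to 110 on probe ILMN_2774662 and 80.6 to 113 on probe ILMN_3009354. A change of Rbl2 was therefore not measurable on these arrays. The 2 further probes of Rbl1 lay at the limit. ILMN_1240408 was detected only at 0 h, with signals of 157 and 152 against 111 and 117 at 48 h. Its bound of at least 1.20-fold likewise carries no error estimate. ILMN_1236935 was detected only on 1 array at 0 h.

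At 12 h, 2 of the 12 member probes tested fell, Mybl2 and E2f4, and 0 rose, where 7.82% of all probes tested fell and 8.73% rose. The arrays of 0 h and 12 h did not overlap for 10 of the 12 probes, as for 57.6% of all probes. With the array set as a block, 8 member probes fell and 1 rose, the rise being Rb1 on ILMN_2861644 (log2 change 0.31, adjusted p = 0.00851). With that block 2738 of all 14091 probes fell and 2490 rose, more than without it. The 12 h calls for E2f1, E2f3, Foxm1 and the E2f2 probe ILMN_2836137 thus rest on taking out the difference between array sets. The E2f2 probe ILMN_2673776 also passed at 12 h without that block in other fits. Its adjusted p by limma was 0.0489 with no detection filter and 0.0466 with 1 probe per gene.

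At 48 h, 8 member probes fell, 1 rose and 3 did not pass, where 25.9% of all probes fell and 25% rose. A decrease of at least 2-fold was found on 5 member probes, those of Mybl2, E2f2 and Foxm1, compared with 4.72% of all probes. The 0 h and 48 h arrays did not overlap for 12 of the 12 member probes, as for 74.4% of all probes. E2f2, Mybl2 and Foxm1 are in the study's own list of changed genes, drawn from these arrays, so their decrease is not independent evidence. The comparisons at 12 h and 48 h share the 0 h arrays.

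**Figure D3:**
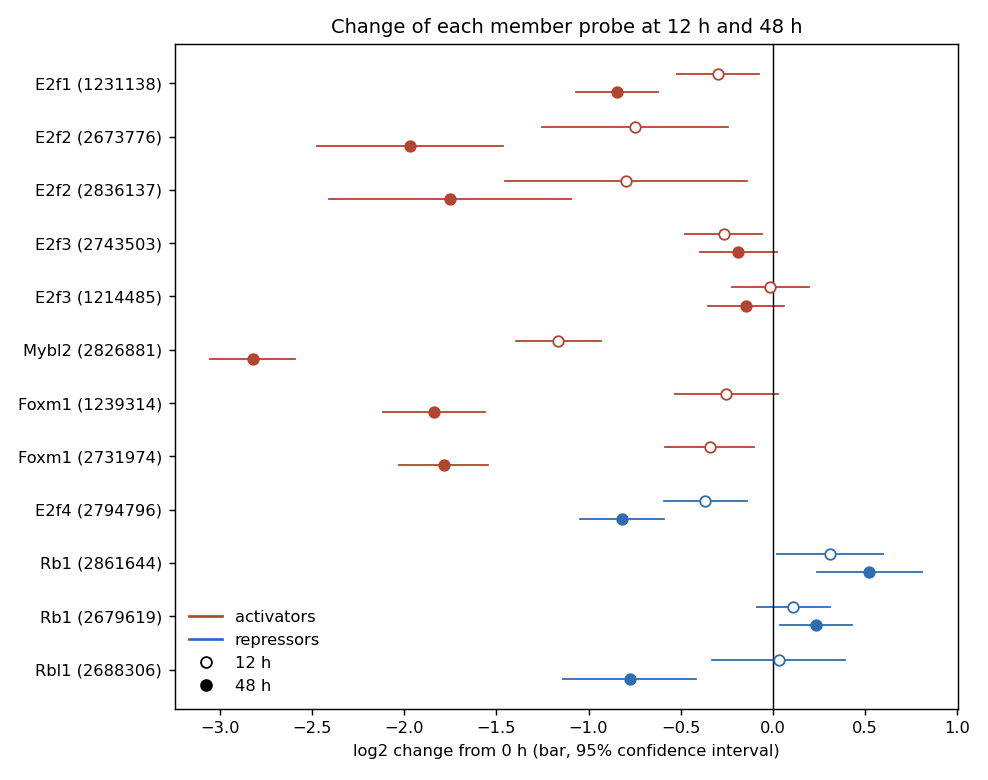
Log2 change from 0 h (x axis) of each member probe (y axis) at 12 h (open) and 48 h (filled), with activators in red, repressors in blue and bars for the 95% confidence interval from limma. The activators other than E2f3 lie at or below -0.85 at 48 h, Rb1 lies above 0, and E2f4 and Rbl1 lie near -0.8.

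The 48 h arrays were also compared with the 12 h arrays directly. In this comparison 8 member probes fell and 0 rose, where 18.9% of all probes fell and 18.9% rose, and the arrays did not overlap for 11 of the 12 probes, as for 68.3% of all probes. Mybl2 fell by 1.66 ± 0.10 (adjusted p = 2.28e-05), and the log2 changes of the Foxm1 probes were -1.44 ± 0.10 and -1.58 ± 0.12. E2f2 changed by -1.22 and -0.95, Rbl1 by -0.81, E2f1 by -0.55 and E2f4 by -0.45. The call for the second E2f2 probe was lost without 12 h replicate 1 (-0.62, adjusted p = 0.162) or 48 h replicate 2 (-0.74, adjusted p = 0.111), and that for E2f4 without 12 h replicate 2 or 48 h replicate 1 (adjusted p = 0.0520 and 0.0509). Rb1 changed by 0.21 and 0.12, which did not pass (adjusted p = 0.216 and 0.303). The members differed in how much of the 48 h change was present at 12 h. The share was 41.3% for Mybl2, 38.0% and 45.5% for the E2f2 probes, 35.1% for E2f1 and 44.7% for E2f4, compared with 19.2% and 13.7% for the Foxm1 probes and -3.94% for Rbl1. For the rise of Rb1 it was 59.2% on ILMN_2861644 and 47.9% on ILMN_2679619, which did not pass at 48 h. The E2f3 probes, whose small 48 h changes did not pass, gave 142% and 9.92%. These shares are given without a test. In the fit of all 14091 probes without a block, only Mybl2 and E2f4 of these members passed the test at 12 h.

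Read by role, the 5 activators, with 1 probe each, showed median log2 changes of -0.34 (12 h) and -1.79 (48 h), and 4 of them fell at 48 h. The 3 repressors that could be tested gave medians of 0.031 (12 h) and -0.78 (48 h), with 2 falling and 1 rising at 48 h. E2f8, detected only at 0 h, and Rbl2, not detected on any array, are left out of the repressor medians and means. Over all 8149 genes with a probe tested, the 48 h median was 0.011, and 26.5% fell and 27.4% rose. The mean change over the activators was -0.51 and -0.62 on the 12 h arrays and -1.51 and -1.54 on the 48 h arrays, and over the repressors -0.0026 and -0.014, then -0.37 and -0.34. The activator mean was lower than the repressor mean on each of these 4 arrays, a description with no test because the members were chosen by role. The genes themselves did not separate by role. At 12 h the repressor E2f4 changed by -0.37, more than E2f1, E2f3 and Foxm1 at -0.30, -0.27 and -0.34. At 48 h E2f4 and Rbl1 changed by -0.82 and -0.78, more than the activator E2f3 at -0.19. The repressor mean joins genes that moved in opposite directions, E2f4 and Rbl1 down and Rb1 up.

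The partners and regulators of the members did not move as 1 group. Of the other E2F and DP genes, Tfdp1, the main DP partner and also in the study's list, fell by 1.38 ± 0.10 at 48 h (adjusted p = 2.29e-05). E2f5, a repressor E2F, rose by 0.45 ± 0.092 (adjusted p = 0.00409), and Tfdp2 fell by 0.50 ± 0.100 at 12 h (adjusted p = 0.0139) but had a 48 h change of -0.19 that did not pass. With the array set as a block Tfdp2 also passed at 48 h (adjusted p = 0.0423). E2f6 did not pass at either time, though its 12 h change of -0.24 passed with that block (adjusted p = 0.0251), and E2f7 was not detected on all arrays. Of the 5 MuvB core genes only 2 could be tested: Lin54, its DNA-binding subunit, fell by 0.53 ± 0.13 (adjusted p = 0.0101), and Rbbp4 had a log2 change of -0.59 that did not pass (adjusted p = 0.129) and passed with the array set as a block (adjusted p = 9.94e-06). In the other MYB and FOX genes, Foxk2 changed by -0.83 and Foxk1 by -0.31, both past the test, and Foxo1 and Foxo3 did not pass. With the array set as a block Foxo3 passed in both comparisons, with log2 changes of 0.22 at 12 h (adjusted p = 0.0446) and -0.22 at 48 h (adjusted p = 0.0282).

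Of the 8 cyclins and kinases that act on RB, 6 fell and 1 rose at 48 h, where 26.5% of all genes tested fell and 27.4% rose. The E-type cyclins, which are E2F targets and activate Cdk2, fell most, with log2 changes of -2.37 ± 0.10 for Ccne2 (5.15-fold lower, adjusted p = 2.10e-06) and -1.49 ± 0.13 for Ccne1. Ccnd3 fell by 1.09 ± 0.10, Cdk2 fell by 0.73 ± 0.10, and Ccnd2, a D-type cyclin, rose by 0.78 ± 0.23 (adjusted p = 0.0247). Of the 4 CDK inhibitors tested, Cdkn1a, which encodes p21, rose by 0.78 ± 0.13 at 12 h (adjusted p = 0.00809). Its 48 h rise was 1.37 ± 0.13 (adjusted p = 9.39e-05), and Cdkn2c fell by 1.09 ± 0.089 at 48 h. Cdkn2d and Cdkn1b did not pass at 12 h, with log2 changes of 0.37 and 0.23 (adjusted p = 0.0510 and 0.347). With the array set as a block both passed at 12 h (adjusted p = 0.00207 and 0.0360). Neither passed at 48 h, with or without that block. Of 9 chromatin genes that act with RB, 4 fell, with log2 changes of -1.55 for Rbbp7, -1.48 for Ezh2, -0.52 for Hdac2 and -0.49 for Hdac3, and Sin3b rose by 0.57, against the same shares of all genes. The other 4 did not pass, though with the array set as a block Sin3a (-0.29, adjusted p = 0.00500) and Arid4b (0.26, adjusted p = 0.0129) did. Rbbp7 and Ezh2 had standard errors of 0.25 and 0.38. Within array sets 1 and 2 the 48 h change was -1.66 and -1.44 for Rbbp7 and -1.40 and -1.56 for Ezh2.

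The known targets of these factors fell together at 48 h. Of 35 E2F target genes of the G1/S transition, 28 were tested, and 28 of 28 fell at 48 h, with a median log2 change of -1.95 and a decrease of at least 2-fold for 26. Rrm2, the small subunit of ribonucleotide reductase, fell by 2.50 ± 0.16 (5.65-fold lower), with log2 changes of -2.30 ± 0.091 for Mcm5, a subunit of the replicative helicase, -2.26 ± 0.12 for Uhrf1 and -2.25 ± 0.087 for Mcm10. The smallest change of the list was that of Pcna, -0.70 ± 0.084. Over all genes tested, 26.5% fell and 5.28% fell by at least 2-fold. Of 34 MuvB and FOXM1 target genes of G2 and mitosis, 23 were tested and 23 of 23 fell at 48 h, with a median of -1.86 and at least 2-fold for 20. Cdc20, which activates the anaphase-promoting complex, fell by 2.66 ± 0.10 (6.34-fold lower), with log2 changes of -2.29 ± 0.085 for the survivin gene Birc5, -2.26 ± 0.12 for the mitotic kinase gene Aurka and -2.22 ± 0.092 for Plk1, a further mitotic kinase gene. Many of these targets are also in the study's list of changed genes, so they are not independent evidence.

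At 12 h fewer genes of the G1/S and G2/M lists had fallen than at 48 h. Over all genes tested 7.99% fell at 12 h. Of the G1/S targets 19 of 28 fell, with a median of -0.43, led by Tk1 at -0.72 ± 0.092 and Cdc6 at -0.71 ± 0.087. Of the G2/M targets 6 of 23 fell, with a median of -0.25, led by Birc5 at -0.47 ± 0.085. Blocking on the array set gave counts of 28 and 12, normexp gave 12 and 1, and the replicate block gave 11 and 2. With scaling to the 75th percentile and with the deposited normalized table both counts were 0. The counts over the whole array moved in the same direction. With the array set block 1572 of all 8149 genes fell, against 651 without it. Of all 14091 probes, 717 fell with normexp, 689 with the replicate block, 33 with scaling and 0 with the deposited table, against 1102. Leaving out any 1 of the 0 h and 12 h arrays gave 4 to 10 for the G1/S list and 0 to 1 for the G2/M list, so the 12 h counts rest on all 4 of these arrays. No gene of either list rose at 12 h or 48 h.

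**Figure D4:**
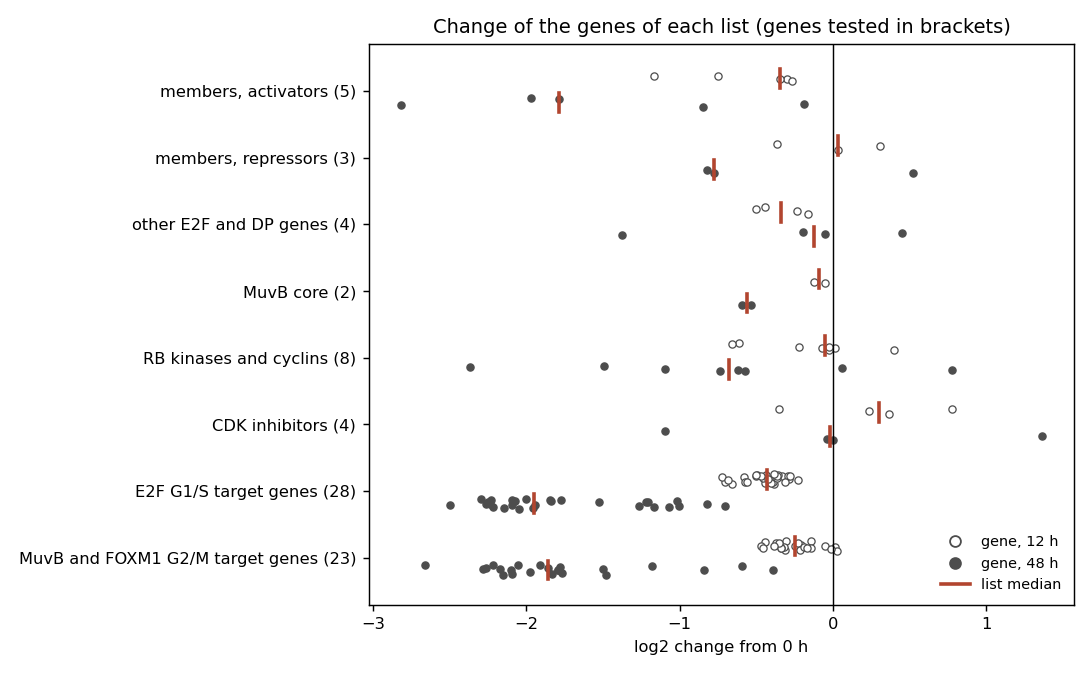
Log2 change from 0 h (x axis) of every tested gene of each list (y axis, number tested in brackets) at 12 h (open) and 48 h (filled), with the list median in red. The G1/S and G2/M target genes lie between -2.66 and -0.39 at 48 h, and the repressors, the other E2F and DP genes, the cyclins and kinases and the CDK inhibitors have genes on both sides of 0.

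The genes nearest to each member were found as the named genes with the smallest root mean square difference of log2 deviations over the 6 arrays. For Foxm1 these were the beta-tubulin gene Tubb5 (0.024), the spindle midzone gene Prc1 (0.063) and the kinetochore gene Ska2 (0.066) on ILMN_1239314, and Kif11 (0.070), Fignl1 (0.071) and Cdca8 (0.072) on ILMN_2731974. For Mybl2 they were Dmwd (0.14), Pclaf (0.15) and Ydjc (0.21), and for E2f2 on ILMN_2673776 Hmgb2 (0.12), Pcdh7 (0.16) and Nasp (0.17). The second E2f2 probe had Rbbp7 (0.19), Pcdh7 (0.19) and Ezh2 (0.20). The E2f2 patterns include the offset between the array sets. E2f1 lay nearest to Slc4a2 (0.044), Caskin2 (0.048) and Nme3 (0.049), and E2f4 to Bbs12 (0.017), Nudt19 (0.027) and Stx12 (0.035). Rbl1 lay nearest to Tufm (0.072), Actb (0.086) and Foxp1 (0.089), and Rb1 to Nfu1 (0.042), Arl3 (0.042) and Brwd1 (0.043). With 3 time points, many genes share such patterns, and the likeness, read on shared arrays, is a description.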

How the data were processed

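RNA from RAW 264.7 cells was measured on 6 arrays, 2 per time point. The deposited intensity of each probe is GenomeStudio's signal, which the authors left on a linear scale and not normalized between arrays. The detection p-values the authors deposited compare each probe with negative controls. A second deposited table of log2 values, quantile normalized by the authors, was normalized in 2 separate sets of 3 arrays, as its values show, and served as an alternative only. R 3.0.2 is named in the submitters' processing notes.

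The 14091 probes (31.1%) whose detection p was under 0.05 on every array were log2 transformed, quantile normalized together and fitted with a mean per time point by limma 3.58.1 in R 4.3.3. Benjamini-Hochberg adjustment ran over all these probes. Rose and fell mean an adjusted p under 0.05. The fit left 3 residual degrees of freedom. The number of arrays limits the precision. Gene names came from the platform annotation, with 34885 probes of 1 symbol, 18 of several and 10378 of none here, and probes with several were left unnamed. In the lists the probe with the highest mean signal stood for a gene.

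For a probe not detected on either array of a time point, "at least" folds set the brighter mean against the higher of the dim signal and the lowest detected signal of each array, on the scale of all probes normalized together. Such a bound takes the brighter mean as exact and carries no error estimate. On simulated data the fit was tested before use. Members and lists were chosen with earlier results of these data known. Named are all members, up to 4 passing genes of each list with the largest 48 h change and any that moved the other way, and the 3 genes nearest to each member that passed. Also named are Pcna, E2f6, E2f7, Foxo1, Foxo3, Tfdp2, Rbbp4, Cdkn1b, Cdkn2d, Sin3a, Arid4b, Tk1 and Cdc6, which were added after their values were seen. Promoter sequences are from RefSeq, and E2f4, Foxm1 and Rb1 were not looked up elsewhere. Alternatives were other detection filters, the deposited table, scaling to the 75th percentile, normexp (offset 16), the methods' t-test, blocks for replicate number and array set, and leaving out each array. A fit with 1 probe per gene was a further alternative.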

Additional observations from a re-analysis of the deposited data

How the results depend on the processing

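At 12 h the count of 2 members' probes lower was 4 with no detection filter, 1 with normexp, with scaling to the 75th percentile, with the replicate block, with the methods' t-test at 2-fold and with a 2-fold minimum, 0 with the deposited table and with the methods' t-test after Benjamini-Hochberg, 8 with the array set block, and 7 with the deposited table and that block, a setting chosen after seeing the data. Leaving out 1 array gave 1 to 3. The count of 0 higher was 1 with the array set block on either table. At 48 h against 0 h the count of 8 lower was 5 with the deposited table and with a 2-fold minimum, 4 with the methods' t-test at 2-fold and 3 after Benjamini-Hochberg, and the 1 higher, Rb1, was 2 with the array set block on either table and 0 with scaling, the deposited table, a 2-fold minimum, both forms of the methods' t-test and without 0 h replicate 2, so that leaving out 1 array gave 0 to 1. At 48 h against 12 h the count of 8 lower was 2 with the deposited table, 3 and 0 with the 2 forms of the methods' t-test and 4 with a 2-fold minimum, and the count of 0 higher was 1 with the array set block on either table. The direction changed only for small values that did not pass: at 12 h, leaving out 1 array took the dim E2f3 probe from -0.079 to 0.050 (without 0 h replicate 1 and 2) and Rbl1 from -0.12 to 0.18 (likewise), with -0.076 without 12 h replicate 1, and at 48 h against 12 h, with scaling, E2f3 was -0.022 and Rb1 on ILMN_2679619 was -0.0098. In the deposited table read within a set, the sign at 12 h also differed for the same 2 probes. The dim E2f3 probe was at 0.059 within set 1, against -0.014 in the main fit. Rbl1 was at -0.012 within set 2, against 0.031. The cause of these changes was not tested, except that the deposited table's sets were normalized apart, which the block removes.

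The replicate numbers did not pair the arrays: deviations of same-numbered arrays correlated at -0.55 (0 h and 12 h), -0.56 (0 h and 48 h) and 0.65 (12 h and 48 h), and the array set block is the crossed pairing. The replicate block left 8 members' probes lower and 1 higher at 48 h. Over all probes, 12 h calls lower and higher were 1102 and 1230, against 689 and 871 with the replicate block, 2738 and 2490 with the array set block, 717 and 957 with normexp, 33 and 199 with scaling, 0 and 0 with the deposited table, and 280 to 411 and 472 to 706 when a 0 h or 12 h array was left out. With scaling, calls at 48 h against 12 h were 1238 and 701, against 2660 and 2659.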
